A study of Mus musculus with 10 samples.

Results

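Diabetic and nondiabetic salivary glands of the same age were compared on microarrays: 4 glands from female 21-week-old mice with type 1 diabetes and 3 from female 21-week-old mice without diabetes. These are 7 of the 10 arrays of the series. The other 3 arrays hold glands of 6-week-old female mice without diabetes, and they entered the fit only to help estimate the spread between mice and as a younger level beside both older groups. All mice were of the NOD/shiLtJ strain and no drug or diet is named in the labels. The gland was cut up and digested with dispase II and collagenase IV, the released cells were filtered, and total RNA was taken with Trizol, so every group carries the same digestion step. Mice carry a number within their group in the labels, which do not state the hour of collection, the blood glucose or which of the salivary glands was taken. All genes that could be named by a single symbol and were bright enough were tested, 18826 in all. Each gene is represented by its brightest probe set.

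NOD mice lose their insulin-producing cells to an autoimmune attack, and they also develop immune cell infiltrates in their salivary and lacrimal glands, for which they serve as a model of Sjögren's syndrome. A salivary gland is built of acini, which make the fluid and most of the protein of saliva, and of ducts, which take up sodium chloride and adjust bicarbonate. In rodents the submandibular duct also has granular convoluted tubules, cells packed with kallikreins and growth factors whose number depends on hormones. Insulin promotes glucose uptake and fat synthesis in its target tissues and keeps the FoxO transcription factors out of the nucleus. When insulin is missing, blood glucose, fatty acids and ketone bodies rise.

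The diabetic glands differed from the nondiabetic ones in 271 of the 18826 genes, of which 207 rose and 64 fell at an adjusted p under 0.05 in limma's moderated test. That is 1.44% of genes called, with 1.10% called as risen and 0.340% as fallen. A further look at the unadjusted p-values found 2978 genes under 0.05. Of the genes that rose, 94 did so by less than 2-fold, 95 by 2-fold to 4-fold, 10 by 4-fold to 8-fold and 8 by 8-fold or more. The fallen genes were divided as 29, 23, 4 and 8 over the same steps. In all, 148 called genes changed at least 2-fold, 0.786% of the genes tested. Brighter genes passed more often, with 0.255% called in the lowest of 4 bins of mean level of about equal size and 3.32% in the highest. The values of the 2 groups did not overlap in 269 of the 271 genes, the exceptions being Golm2 and Cgref1. Among all genes tested 14.1% had groups that did not overlap, 9.11% with the diabetic glands higher and 4.98% with them lower. Lack of overlap therefore adds no support to a call. After quantile normalization the same test called 130 genes as risen and 100 as fallen, so the preponderance of rises depended in part on how the arrays were scaled. That normalization moved the median change over all genes from 0.03 to -0.02 on the log2 scale.

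**Figure D1:**
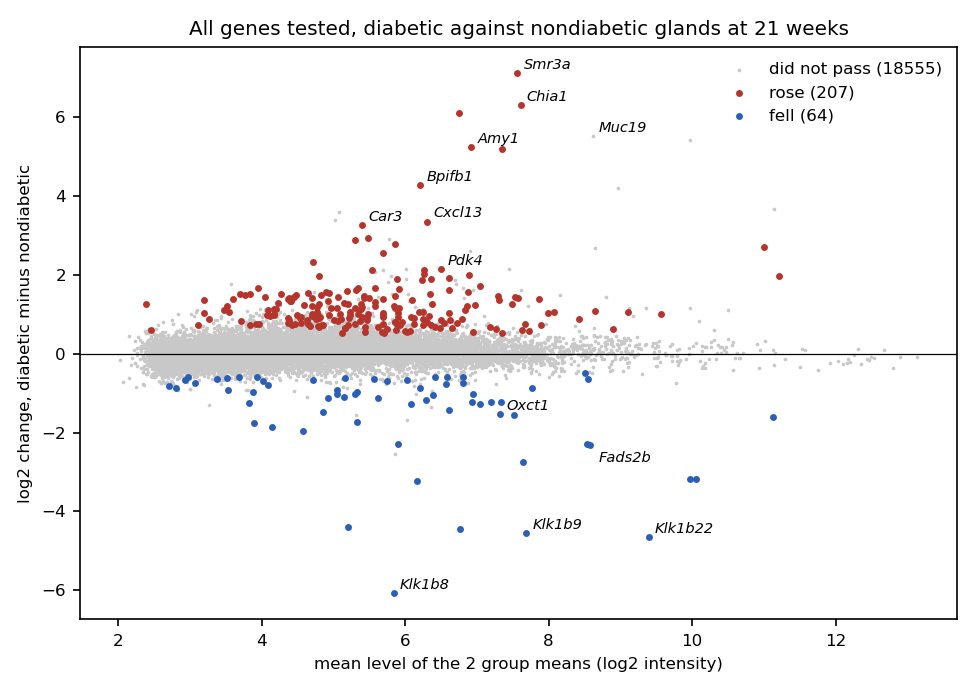
Each point is 1 of the 18826 genes tested, placed by its mean level (horizontal axis, log2 intensity, mean of both group means) and by the log2 change, diabetic minus nondiabetic (vertical axis). The 207 genes that rose are red and the 64 that fell are blue, while grey genes did not pass, among them Muc19 with a change of 5.51.

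2 arrays stood apart, and they touch much of what follows. Nondiabetic array 3 had a 75th percentile of 4.62 where the other 9 arrays lay between 4.83 and 4.91, and it correlated with them at 0.917 to 0.961 where the others correlated with each other at 0.934 to 0.983. The median spread of a gene within the nondiabetic group (SD) was 0.195 on the log2 scale with this array and 0.12 without it. An SD over 2 arrays also tends to be smaller than one over 3, so not all of this drop belongs to that array. Diabetic array 4 correlated with diabetic arrays 1 to 3 at 0.958 to 0.967, while those 3 correlated with each other at 0.979 to 0.983. It also had the highest mean of the lymphocyte genes. Without nondiabetic array 3, 84 genes passed, 81 of them among the 271, and without diabetic array 3, 95 passed, 94 of them among the 271. Without diabetic array 4, 196 of the 271 passed. A total of 73 genes, 52 risen and 21 fallen, passed in each of the 7 fits that left out 1 array. No gene changed its direction in these fits, and the highest adjusted p of any of the 271 genes was 0.183, without nondiabetic array 3.

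The products that name the parts of the gland were checked first. Submandibular acinar products were at a like level on every array, with a list mean of 10.19 to 10.35 in diabetic and 10.28 to 10.39 in nondiabetic glands, and 0 of 9 members passed limma's test (1 at an unadjusted p under 0.05). Prol1, a secreted acinar protein, was 12.48, 12.51, 12.53 and 12.37 in the diabetic and 12.56, 12.62 and 12.59 in the nondiabetic glands. Aqp5, the water channel of the acinar cell, was 9.23, 9.21, 9.01 and 8.59 in the diabetic and 9.07, 8.91 and 8.75 in the nondiabetic glands (log2 change 0.1 ± 0.16 SE, limma adjusted p = 0.814). Bhlha15, a transcription factor of serous secretory cells, gave a change of -0.28 ± 0.18 (SE, limma adjusted p = 0.47). Against this level background, all 12 measured products of granular convoluted tubules fell, with a median log2 change of -3.21, and 8 of 13 parotid-type serous cargo genes rose, with a median of 2.71. The median over all genes was 0.03, and 1.10% of all genes were called as risen and 0.340% as fallen. Both lists were drawn up with earlier results of these data known, so their shares are a description. Most of the tubule products are kallikreins of the Klk1b family and are not independent observations. The 5 cargo genes that did not pass included those of the Prb and Prh proline-rich proteins. Ltf, which rose, is also in the neutrophil list, and some risen cargo genes are also in the antimicrobial list. The list name therefore does not identify the gland that was taken. Without nondiabetic array 3, 10 tubule products fell and 7 cargo genes rose, and after quantile normalization 12 and 8 did. Tubule products averaged 6.58, 6.94, 5.91 and 4.9 on the 4 diabetic arrays and 9.36, 9.49 and 10.05 on the nondiabetic arrays. Parotid-type cargo averaged 8.9, 8.78, 8.34 and 8.52 and 5.27, 5.24 and 6.34. In RNA pooled from the filtered cells of a digested gland, fewer cells of a type and less RNA per cell cannot be told apart. Neither can the share of one gland in the sample or the share of each cell type that was released and kept. Sublingual mucous products had 1 risen member of 12, Galnt12, which did not pass without nondiabetic array 3 (limma adjusted p = 0.15) or after quantile normalization (limma adjusted p = 0.0587). Their mean ran from 4.6 to 6.9 among nondiabetic glands, against 6.72 to 7.25 among diabetic glands. Muc19, the gel-forming mucin of sublingual mucous cells, was 11.7, 11.5, 11.66 and 10.62 in the diabetic and 2.03, 10.86 and 4.7 in the nondiabetic glands, so 1 nondiabetic gland reached the diabetic level. Its change did not pass (limma adjusted p = 0.0853). The 7 measured pancreatic enzyme genes had no called member in limma's test and 0 at an unadjusted p under 0.05.

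**Figure D2:**
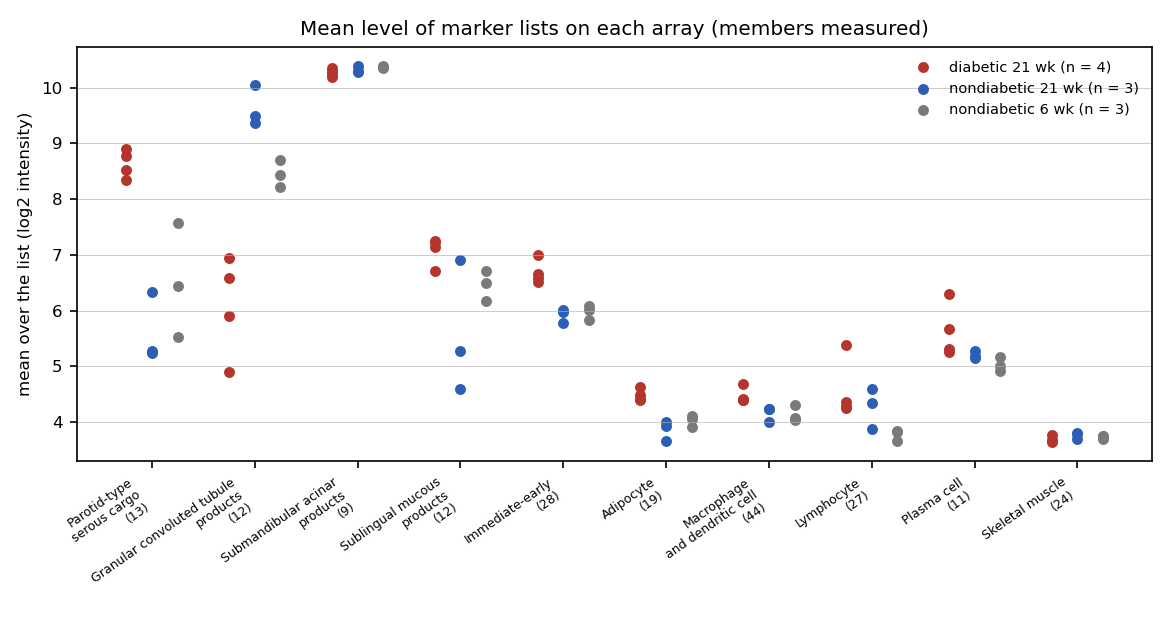
Each point is the mean log2 intensity of a marker list on 1 array (vertical axis), for diabetic (red, n = 4), nondiabetic (blue, n = 3) and 6-week glands (grey, n = 3), with the number of measured members under each list name. Submandibular acinar products sit between 10.19 and 10.39 on all arrays, while parotid-type cargo, tubule products and immediate-early genes separate the 21-week groups and the lymphocyte mean is high on 1 diabetic array.

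Genes of the machinery that makes and exports secretory protein were taken by list. With 1.44% of all genes called, few or no called genes in lists of this size say little about them. None of 30 genes for translocation into the endoplasmic reticulum and N-glycosylation passed limma's test, and 2 of them were at an unadjusted p under 0.05. None of 31 genes for COPI and COPII vesicle coats passed either, with 4 at an unadjusted p under 0.05. Among 27 genes for the docking and fusion of granules, only Rab27b passed (3.7%). It encodes a small GTPase that tethers secretory granules at the membrane. Its values were 5.9, 6.02, 5.56 and 5.61 in the diabetic and 6.31, 6.49 and 7.1 in the nondiabetic glands, a fall of 1.81-fold (log2 change -0.86 ± 0.18 SE, limma adjusted p = 0.039). A pair of further exocytosis genes outside that list was named by the rule on the largest falls. Unc13b, which primes vesicles for fusion, was 7.01, 6.85, 6.52 and 5.99 in the diabetic and 7.69, 7.82 and 7.91 in the nondiabetic glands (log2 change -1.21 ± 0.22 SE, limma adjusted p = 0.0205). Stxbp5l, a tomosyn that binds syntaxin and restrains fusion, was 4.21, 4.86, 4.06 and 3.31 in the diabetic and 5.33, 5.5 and 5.95 in the nondiabetic glands (log2 change -1.48 ± 0.3 SE, limma adjusted p = 0.0329). In all 3 genes every diabetic gland lay below every nondiabetic one, and 269 of the 271 called genes lacked overlap likewise. Rab27b missed the threshold in 6 of the 7 fits (limma adjusted p up to 0.126), Unc13b without diabetic array 3 or nondiabetic arrays 2 or 3 (adjusted p up to 0.0906) and Stxbp5l in 5 of the 7 fits (adjusted p up to 0.147).

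Of 43 genes for proton pumps and acid-base transport, Car13, Atp6v0d2 and Slc4a11 fell and Car3 and Slc4a4 rose (1 fell and 2 rose without nondiabetic array 3). The list median was -0.09. The shares were 6.98% fallen and 4.65% risen, against 0.340% and 1.10% of all genes. Car3, with the largest change of the list (3.27 on the log2 scale), is also an adipocyte marker. Car13, a cytosolic carbonic anhydrase, was 4.78, 4.97, 4.14 and 4.47 in the diabetic and 5.75, 5.64 and 5.68 in the nondiabetic glands, a 2.14-fold fall (log2 change -1.1 ± 0.18 SE, limma adjusted p = 0.00921). Atp6v0d2, a membrane-sector subunit of the vacuolar proton pump, was 6.73, 6.51, 6.21 and 5.8 in the diabetic and 7.63, 7.44 and 7.58 in the nondiabetic glands (log2 change -1.24 ± 0.22 SE, limma adjusted p = 0.0157). Slc4a11, a transporter of the bicarbonate transporter family, was 6.16, 5.95, 5.31 and 5.42 in the diabetic and 7.0, 6.74 and 6.89 in the nondiabetic glands (log2 change -1.17 ± 0.26 SE, limma adjusted p = 0.0447). The nondiabetic values of each of these 3 genes lay close together, and all diabetic glands lay below them. Ascl3, a transcription factor of duct progenitor cells, was 6.98, 6.95, 6.73 and 6.2 in the diabetic and 7.95, 7.97 and 7.93 in the nondiabetic glands, with the 3 nondiabetic values almost equal. Tmigd1 and Hepacam2, both cell-surface proteins of the immunoglobulin superfamily, fell too. Tmigd1 was 6.82, 6.4, 6.23 and 6.17 in the diabetic and 7.61, 7.73 and 7.71 in the nondiabetic glands (log2 change -1.28 ± 0.16 SE, limma adjusted p = 0.00157). Hepacam2 was 4.82, 4.57, 4.28 and 4.51 in the diabetic and 5.87, 5.49 and 5.33 in the nondiabetic glands (log2 change -1.02 ± 0.21 SE, limma adjusted p = 0.0322). Car13, Ascl3 and Tmigd1 passed in each of the 7 fits that left out 1 array. Atp6v0d2 missed the threshold without diabetic array 3 or nondiabetic arrays 1 or 3 (limma adjusted p up to 0.0715), Slc4a11 in 6 of the 7 fits (adjusted p up to 0.145) and Hepacam2 in 6 of the 7 fits (adjusted p up to 0.112).

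Of the other transporters and channels, single genes passed in either direction. Slc9a9, a sodium-proton exchanger of endosomes, was 6.09, 5.68, 6.21 and 5.98 in the diabetic and 5.12, 5.35 and 4.46 in the nondiabetic glands (log2 change 1.02 ± 0.19 SE, limma adjusted p = 0.025). Lrrc8a, the indispensable subunit of the volume-regulated anion channel, was 5.97, 6.0, 6.26 and 6.03 in the diabetic and 5.43, 5.32 and 5.19 in the nondiabetic glands (log2 change 0.76 ± 0.12 SE, limma adjusted p = 0.00921). Slc6a6, which imports taurine, was 6.45, 6.43, 6.53 and 6.89 in the diabetic and 5.75, 5.86 and 5.4 in the nondiabetic glands (log2 change 0.91 ± 0.17 SE, limma adjusted p = 0.0194). All 3 were higher in every diabetic gland than in any nondiabetic one, and 269 of the 271 called genes lacked overlap likewise. Atp1b3, a beta subunit of the sodium-potassium pump, rose by 0.8 on the log2 scale, and Ano10 of the anoctamin family by 0.55. Ano10 and the fallen Scnn1b were the called members among 49 channel genes (2.04% each, with 1.10% of all genes risen and 0.340% fallen). Cftr, the chloride channel that secretes bicarbonate in ducts, was 4.76, 4.85, 4.35 and 4.39 in the diabetic and 5.52, 5.05 and 5.92 in the nondiabetic glands and did not pass (log2 change -0.91 ± 0.22 SE, limma adjusted p = 0.065). None of 41 receptor genes for secretomotor nerves and transmitters passed limma's test, with 6 at an unadjusted p under 0.05. Chrm3, the muscarinic receptor that drives saliva secretion, gave a change of 0.03 ± 0.13 (SE, limma adjusted p = 0.945). Scnn1b and Lrrc8a passed in each of the 7 fits that left out 1 array. Slc9a9 missed the threshold in 4 of the 7 fits (limma adjusted p up to 0.0895), Slc6a6 without diabetic array 3 or nondiabetic array 3 (adjusted p up to 0.0886) and Atp1b3 in 5 of the 7 fits (adjusted p up to 0.0881). Ano10 missed the threshold in 7 of the 7 fits (limma adjusted p up to 0.148). After quantile normalization Atp1b3 and Ano10 did not pass (limma adjusted p up to 0.102).

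Junction genes were split. Of 49 genes for tight, adherens and gap junctions, Cldn3 and Cldn22 rose and Cldn1 and Tjp3 fell. The shares were 4.08% in each direction, against 1.10% of all genes risen and 0.340% fallen. Claudins form the strands of tight junctions and decide which ions pass between cells. Cldn1 was 6.79, 6.48, 6.08 and 6.41 in the diabetic and 7.0, 7.4 and 7.98 in the nondiabetic glands and 8.11, 8.02 and 8.0 in the 6-week glands (log2 change -1.02 ± 0.21 SE, limma adjusted p = 0.0334). Cldn3 was 7.07, 6.97, 7.01 and 6.86 in the diabetic and 6.43, 6.43 and 6.13 in the nondiabetic glands (log2 change 0.65 ± 0.13 SE, limma adjusted p = 0.0268). Cldn22 was 4.5, 4.67, 4.09 and 5.16 in the diabetic and 2.62, 3.64 and 2.99 in the nondiabetic glands, a 2.87-fold rise and the widest of the 4 (log2 change 1.52 ± 0.26 SE, limma adjusted p = 0.015). Tjp3, the scaffold that links claudins to actin, was 5.64, 5.91, 5.54 and 5.66 in the diabetic and 6.28, 6.43 and 6.38 in the nondiabetic glands (log2 change -0.68 ± 0.12 SE, limma adjusted p = 0.0185). The levels of Cldn1 therefore ran in the order diabetic, nondiabetic, 6-week from low to high, and those of Cldn3 were alike in the nondiabetic and 6-week glands. Pkp1, a desmosomal plaque protein, was the 1 called member of 38 keratin and cornified envelope genes and fell by 1.6-fold. Such a share (2.63%, with 1.44% of all genes called) says little about the list. Cldn1 missed the threshold in 5 of the 7 fits (limma adjusted p up to 0.12), Cldn3 in 5 of the 7 fits (adjusted p up to 0.112) and Cldn22 without nondiabetic arrays 1 or 3 (adjusted p up to 0.0729). Tjp3 missed the threshold without diabetic array 3 or nondiabetic arrays 2 or 3 (limma adjusted p up to 0.0722) and Pkp1 in 5 of the 7 fits (adjusted p up to 0.1). After quantile normalization Cldn3 did not pass (limma adjusted p = 0.0643).

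**Figure D3:**
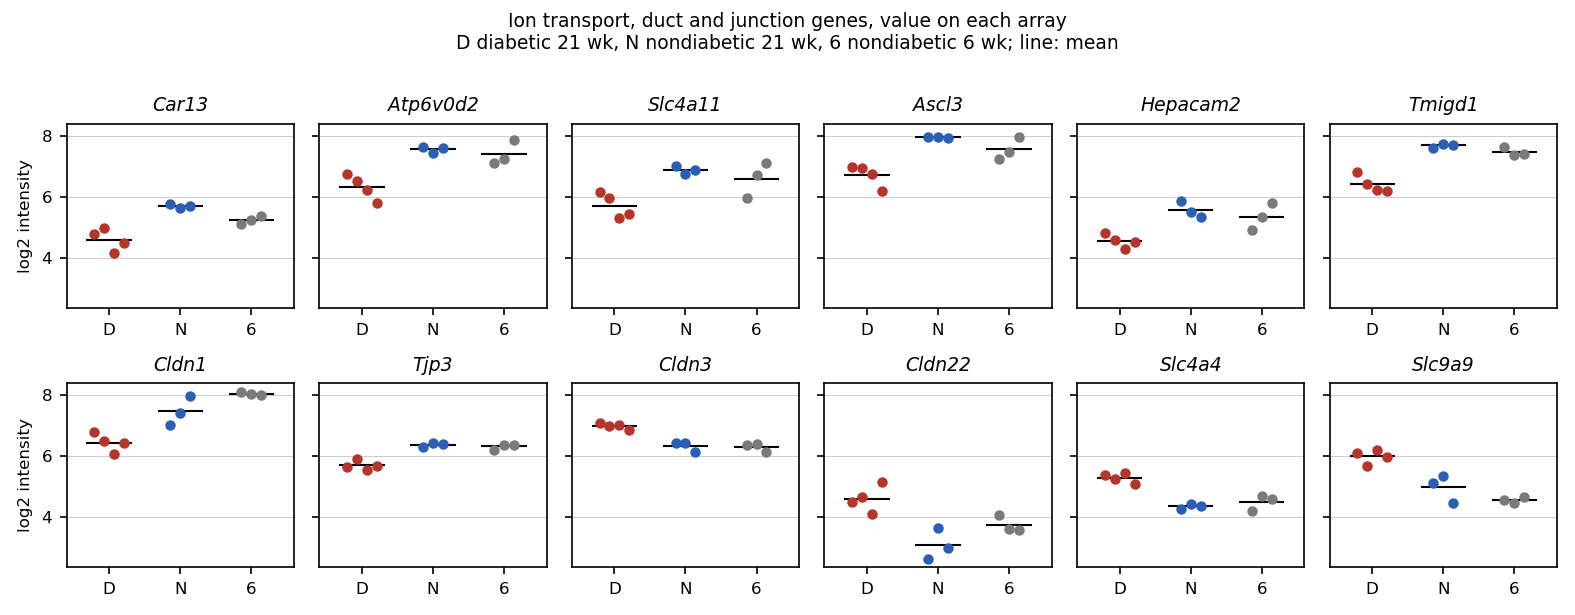
Each panel shows 1 gene of the ion transport, duct or junction groups, with the log2 intensity on each array (vertical axis, shared scale) for diabetic (D, n = 4), nondiabetic (N, n = 3) and 6-week glands (6, n = 3); the line is the group mean. In each of the 12 panels the diabetic points lie wholly on one side of the 21-week nondiabetic points, lower in Car13, Atp6v0d2, Slc4a11, Ascl3, Hepacam2, Tmigd1, Cldn1 and Tjp3 and higher in Cldn3, Cldn22, Slc4a4 and Slc9a9. All genes shown were called, and 269 of the 271 called genes have groups that do not overlap.

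Ketone bodies are made in the liver and burned elsewhere, and Oxct1, the transferase without which a tissue cannot use them, was the 1 called member of 13 genes for ketone body and lactate metabolism. It was 6.85, 7.04, 6.4 and 5.96 in the diabetic and 8.12, 8.06 and 8.09 in the nondiabetic glands and 8.03, 7.99 and 8.21 in the 6-week glands, a 2.88-fold fall (log2 change -1.53 ± 0.21 SE, limma adjusted p = 0.00392). The nondiabetic and 6-week values all lay at about the same level, and every diabetic gland lay below them. The list median was -0.2, and 3 members fell after quantile normalization. A single call among 13 says little about the list, since 1.44% of all genes were called. The next enzyme after Oxct1, Acat1, was 7.87, 7.95, 7.69 and 7.38 in the diabetic and 8.05, 7.88 and 7.83 in the nondiabetic glands and did not pass (limma adjusted p = 0.533). None of 28 citrate cycle genes passed limma's test (6 at an unadjusted p under 0.05), only 2 of the 28 changes were positive, and their median was -0.22. In the 33-member fat storage list, Fabp4, Cd36 and Angptl4 rose (9.09%, against 1.10% of all genes). Fabp4 carries fatty acids inside the cell, Cd36 takes them up, and Angptl4 inhibits lipoprotein lipase. Fabp4 and Pck1 are also adipocyte markers, as is Car3 (log2 change 3.27), named above among the acid-base genes. The adipocyte list as a whole had 4 risen members of 19 (21.1%), and 1 without nondiabetic array 3. Its mean was 4.4, 4.63, 4.41 and 4.49 on the diabetic and 4.01, 3.93 and 3.67 on the nondiabetic arrays. The part of this list in the fat-handling changes was not tested. Cd36 and Angptl4 passed in each of the 7 fits that left out 1 array. Fabp4 missed the threshold without diabetic array 3 or nondiabetic array 3 (limma adjusted p up to 0.076).

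Of the 24 genes for peroxisomal and omega oxidation, Eci2 rose and Phyh fell (4.17% each, with 1.10% of all genes risen and 0.340% fallen). The list median was 0.01, and 0 of the list passed without nondiabetic array 3. Phyh, which begins the peroxisomal alpha-oxidation of branched fatty acids, was 6.52, 6.37, 5.79 and 4.87 in the diabetic and 7.23, 7.2 and 7.54 in the nondiabetic glands (log2 change -1.44 ± 0.3 SE, limma adjusted p = 0.0361). Among the diabetic values array 4 was the lowest and array 1 the highest, a spread wider than that between the nondiabetic glands. Acadsb and Echs1 were chosen after their values were seen. Acadsb, a mitochondrial dehydrogenase of short branched acyl-CoA, was 6.51, 6.62, 6.53 and 6.04 in the diabetic and 7.43, 7.13 and 6.96 in the nondiabetic glands (log2 change -0.75 ± 0.16 SE, limma adjusted p = 0.0397). Echs1, the hydratase of mitochondrial beta-oxidation, was 6.16, 6.11, 6.24 and 6.01 in the diabetic and 6.75, 6.57 and 6.81 in the nondiabetic glands (log2 change -0.58 ± 0.12 SE, limma adjusted p = 0.0309). Eci2, an isomerase needed for unsaturated fatty acids, went the other way at 5.17, 5.08, 5.21 and 5.11 in the diabetic and 4.37, 4.61 and 4.33 in the nondiabetic glands (log2 change 0.71 ± 0.12 SE, limma adjusted p = 0.0147). Cox8b, a subunit of cytochrome c oxidase, was 3.35, 3.6, 2.86 and 2.97 in the diabetic and 4.05, 4.46 and 4.84 in the nondiabetic glands (log2 change -1.25 ± 0.25 SE, limma adjusted p = 0.0279), and its 6-week values of 3.3, 2.65 and 3.51 lay near the diabetic ones. Oxct1 passed in each of the 7 fits that left out 1 array. Phyh missed the threshold in 4 of the 7 fits (limma adjusted p up to 0.148), Acadsb in 7 of the 7 fits (adjusted p up to 0.115) and Echs1 in 6 of the 7 fits (adjusted p up to 0.119). Eci2 missed the threshold without diabetic array 3 or nondiabetic arrays 1 or 3 (limma adjusted p up to 0.0656) and Cox8b in 4 of the 7 fits (adjusted p up to 0.125).

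Further metabolic enzymes are given as single genes. Since 1.44% of all genes were called, 1 called gene in a list says little about the list as a whole. Glul, glutamine synthetase, was 9.39, 9.72, 9.83 and 9.6 in the diabetic and 8.84, 8.6 and 8.3 in the nondiabetic glands (log2 change 1.05 ± 0.15 SE, limma adjusted p = 0.00574), and it was the 1 called gene of 41 for amino acid breakdown, the urea cycle and polyamines. Gfpt2, which uses glutamine to start the hexosamine pathway, was 5.68, 6.01, 6.55 and 5.67 in the diabetic and 5.04, 4.22 and 3.92 in the nondiabetic glands, a 3.0-fold rise (log2 change 1.58 ± 0.26 SE, limma adjusted p = 0.0115), and the 1 called gene of 19 for polyol, hexosamine and pentose phosphate metabolism. Diabetic array 3 was the highest and nondiabetic array 3 the lowest. Ggh, which trims the glutamate tail of folates, was 8.23, 8.13, 7.85 and 7.87 in the diabetic and 6.51, 6.4 and 6.78 in the nondiabetic glands (log2 change 1.46 ± 0.15 SE, limma adjusted p = 0.000484). Pck2, the mitochondrial phosphoenolpyruvate carboxykinase, was 7.11, 7.14, 7.21 and 6.97 in the diabetic and 6.27, 6.42 and 6.31 in the nondiabetic glands (log2 change 0.78 ± 0.12 SE, limma adjusted p = 0.00734). The diabetic values of Pck2 lay close together and above all nondiabetic ones. Sult1c1, a cytosolic sulfotransferase, fell 3.91-fold, from 5.29, 5.33 and 6.06 in nondiabetic to 3.54, 3.73, 3.6 and 3.51 in diabetic glands (log2 change -1.97 ± 0.2 SE, limma adjusted p = 0.000484). Cyp2e1, a cytochrome P450 known for its rise in diabetes and fasting in liver, was 4.19, 5.42, 5.7 and 4.78 in the diabetic and 3.16, 3.36 and 4.04 in the nondiabetic glands (log2 change 1.5 ± 0.31 SE, limma adjusted p = 0.0334) and was the 1 called gene of 36 for xenobiotic metabolism. Glul, Ggh, Pck2 and Sult1c1 passed in each of the 7 fits that left out 1 array. Gfpt2 missed the threshold without nondiabetic array 3 (limma adjusted p = 0.064) and Cyp2e1 in 4 of the 7 fits (adjusted p up to 0.0995). After quantile normalization Cyp2e1 did not pass (limma adjusted p = 0.06).

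**Figure D4:**
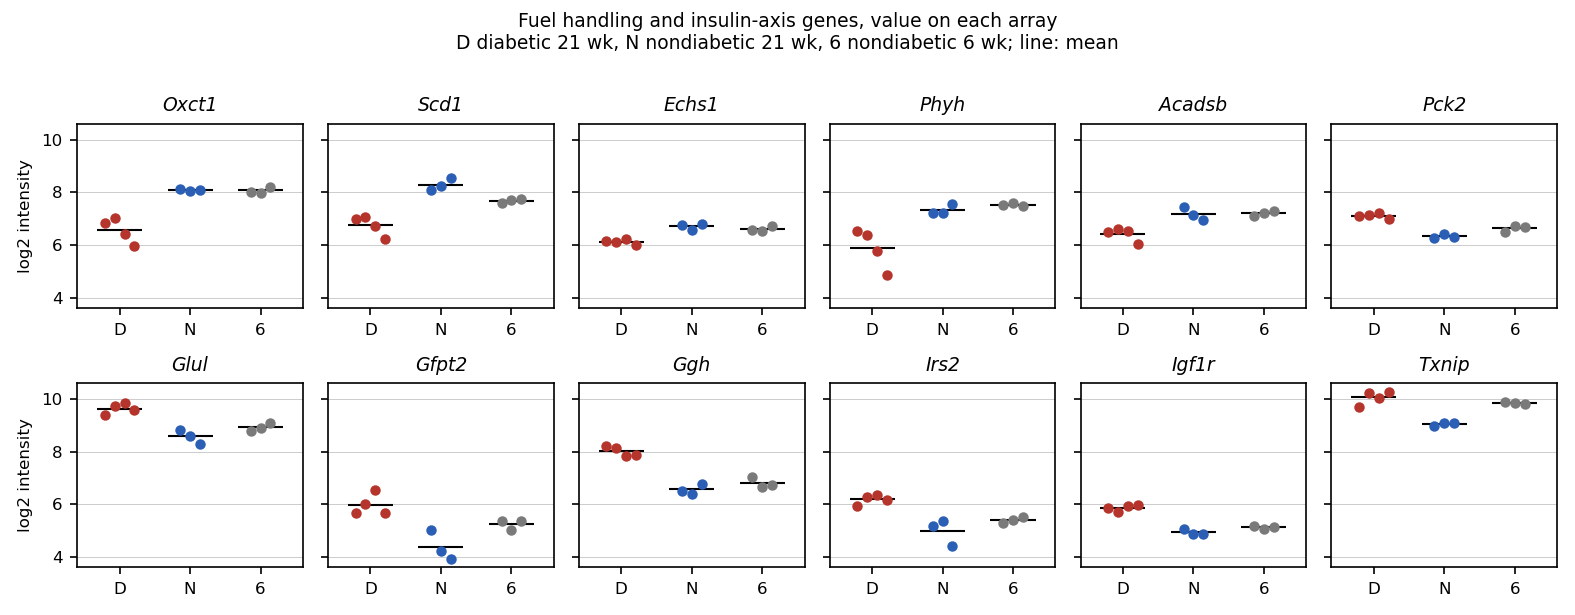
Each panel shows 1 gene of fuel handling or the insulin axis, with the log2 intensity on each array (vertical axis, shared scale) for diabetic (D, n = 4), nondiabetic (N, n = 3) and 6-week glands (6, n = 3); the line is the group mean. Oxct1, Scd1, Echs1, Phyh and Acadsb are lower and Pck2, Glul, Gfpt2, Ggh, Irs2, Igf1r and Txnip higher in every diabetic gland than in any nondiabetic gland of the same age. All genes shown were called, and 269 of the 271 called genes have groups that do not overlap.

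The genes through which FoxO factors answer a lack of insulin were taken as a list. Of 33 FoxO-regulated and fasting response genes, Pdk4, Txnip, Angptl4, Irs2 and Pck1 rose (15.2%, against 1.10% of all genes). None fell, and the list median was 0.16. Pdk4 shuts the entry of pyruvate into the citrate cycle, and Irs2 passes the insulin signal on. Irs2 was 5.94, 6.28, 6.37 and 6.17 in the diabetic and 5.18, 5.35 and 4.42 in the nondiabetic glands (log2 change 1.21 ± 0.2 SE, limma adjusted p = 0.0106), with nondiabetic array 3 lowest. Igf1r, the IGF1 receptor, was 5.87, 5.72, 5.92 and 5.96 in the diabetic and 5.07, 4.87 and 4.89 in the nondiabetic glands (log2 change 0.93 ± 0.12 SE, limma adjusted p = 0.00186), and both groups were tight. Insr, the insulin receptor, was 6.38, 6.51, 6.59 and 6.33 in the diabetic and 6.24, 6.21 and 6.02 in the nondiabetic glands and did not pass (log2 change 0.3 ± 0.12 SE, limma adjusted p = 0.249), although its groups did not overlap. Txnip, which binds thioredoxin and limits glucose uptake, was 9.71, 10.22, 10.05 and 10.28 in the diabetic and 8.97, 9.1 and 9.1 in the nondiabetic glands, and at 9.88, 9.86 and 9.82 in the 6-week glands it was close to the diabetic level (log2 change 1.01 ± 0.14 SE, limma adjusted p = 0.00472). The 24-member list of ATF4 and amino acid response targets had 3 risen members (12.5%). Atf5, a transcription factor of that response, was 6.07, 6.24, 6.65 and 6.73 in the diabetic and 5.31, 5.47 and 5.38 in the nondiabetic glands (log2 change 1.04 ± 0.17 SE, limma adjusted p = 0.0115). Slc7a5, the large neutral amino acid transporter, was 8.08, 7.7, 8.26 and 8.11 in the diabetic and 7.22, 7.33 and 7.32 in the nondiabetic glands (log2 change 0.75 ± 0.14 SE, limma adjusted p = 0.0206). Ppp1r15a, which lets translation resume after stress, was 5.81, 5.58, 6.03 and 6.3 in the diabetic and 5.07, 5.34 and 4.6 in the nondiabetic glands (log2 change 0.93 ± 0.2 SE, limma adjusted p = 0.0388). Atf4 itself gave 0.37 ± 0.15 (SE, limma adjusted p = 0.247), and Asns, asparagine synthetase and a classic target, 0.1 ± 0.15 (SE, limma adjusted p = 0.795). Pdk4, Irs2, Igf1r and Txnip passed in each of the 7 fits that left out 1 array. Pck1 missed the threshold without nondiabetic array 3 (limma adjusted p = 0.0656), Atf5 without nondiabetic array 3 (adjusted p = 0.051) and Slc7a5 without diabetic array 3 or nondiabetic arrays 1 or 3 (adjusted p up to 0.075). Ppp1r15a missed the threshold in 5 of the 7 fits (limma adjusted p up to 0.149). After quantile normalization Ppp1r15a did not pass (limma adjusted p = 0.0709).

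Immediate-early genes, which cells switch on within minutes of a stimulus, were the list with the most risen members. Of 28 such genes 15 rose (53.6%, against 1.10% of all genes), with a median log2 change of 0.76. The count was 12 without nondiabetic array 3, and after quantile normalization 14 rose and 1 fell. Fos was 8.97, 9.07, 9.2 and 9.52 in the diabetic and 8.01, 8.16 and 8.13 in the nondiabetic glands (log2 change 1.09 ± 0.16 SE, limma adjusted p = 0.00549). Egr1 was 7.18, 7.33, 7.51 and 7.84 in the diabetic and 6.15, 6.26 and 6.37 in the nondiabetic glands (log2 change 1.21 ± 0.17 SE, limma adjusted p = 0.00479). Ier3, a survival gene induced by NF-kB and ERK signalling, was 7.08, 6.68, 7.22 and 7.67 in the diabetic and 5.36, 5.99 and 4.57 in the nondiabetic glands, a 3.63-fold rise (log2 change 1.86 ± 0.29 SE, limma adjusted p = 0.00773). Diabetic array 4 was the highest for each of the 3, and the groups did not overlap in any of them, as in 269 of the 271 called genes. The mean of the list was 6.58, 6.52, 6.66 and 6.99 on the diabetic, 5.97, 6.01 and 5.78 on the nondiabetic and 6.08, 5.84 and 6.01 on the 6-week arrays. Enzymatic digestion of tissue also induces these genes, and all groups were digested. In the 16-member list of heat shock and dissociation stress genes only Hspb8 rose (none without nondiabetic array 3). Of the 16 changes 14 were positive, with a median of 0.26, and 7 were at an unadjusted p under 0.05 in limma's test. Among all 18826 genes 2978 were. The list mean was 6.1, 6.31, 5.99 and 5.95 on the diabetic, 5.78, 5.88 and 5.62 on the nondiabetic and 5.98, 5.97 and 6.27 on the 6-week arrays. The part of digestion in the immediate-early rises was not tested.

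The next genes are given singly, since no list of inhibitors of signalling or of RNA decay had been drawn up. Dusp5, a phosphatase that switches off ERK, was 6.08, 5.55, 6.05 and 6.27 in the diabetic and 5.05, 4.93 and 4.44 in the nondiabetic glands (log2 change 1.18 ± 0.18 SE, limma adjusted p = 0.0085). Rcan1, which inhibits calcineurin, was 7.26, 6.84, 7.14 and 6.09 in the diabetic and 5.03, 5.87 and 3.96 in the nondiabetic glands, a 3.69-fold rise (log2 change 1.88 ± 0.38 SE, limma adjusted p = 0.0322). Errfi1, an inhibitor of the EGF receptor, was 6.87, 6.87, 7.18 and 6.81 in the diabetic and 5.96, 6.25 and 6.27 in the nondiabetic glands (log2 change 0.77 ± 0.14 SE, limma adjusted p = 0.0229). The EGF receptor binds the product of Egf, which fell in the same glands. Btg2, an antiproliferative gene induced by p53 and growth factors, was 8.42, 8.24, 8.49 and 8.91 in the diabetic and 7.17, 7.71 and 7.57 in the nondiabetic glands (log2 change 1.03 ± 0.18 SE, limma adjusted p = 0.0155). Cnot6 (0.82) and Pan3 (0.62), which shorten the poly(A) tail of messenger RNA, and Zfp36l1 (0.59), which recruits such enzymes, also rose on the log2 scale, and these 3 and Dusp5 were chosen after their values were seen. Fos, Egr1, Ier3, Dusp5 and Cnot6 passed in each of the 7 fits that left out 1 array. Rcan1 missed the threshold in 5 of the 7 fits (limma adjusted p up to 0.115), Errfi1 in 4 of the 7 fits (adjusted p up to 0.0789) and Btg2 without diabetic array 3 or nondiabetic arrays 1 or 3 (adjusted p up to 0.0568). Pan3 missed the threshold in 4 of the 7 fits (limma adjusted p up to 0.115) and Zfp36l1 in 6 of the 7 fits (adjusted p up to 0.128). After quantile normalization Errfi1, Pan3 and Zfp36l1 did not pass (limma adjusted p up to 0.0862).

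Promoter sequence was available for 155 of the genes that rose and 51 that fell, from RefSeq (GRCm38.p6), and the 250 bases before each start were searched on both strands. The cAMP response element TGACGTCA binds CREB and ATF family factors. It was present in 8 of the 155 risen genes (5.16%) and in 0 of the 51 fallen genes. It was also in 2.47% of the tested genes with promoter sequence and in 1.77% of all genes with such sequence. A gene counted if any of its starts held the element, and the number of starts per gene was not compared between the sets. The 8 genes were Btg2, Clk4, Dusp1, Errfi1, Lrrc8a, Ppp1r15a, Rap1b and Rcan1. The following stretches are shown because their genes are among the rises named here, with the element in capitals and each read on the strand of its gene.
Btg2 (chr1:134079298-134079337, minus strand): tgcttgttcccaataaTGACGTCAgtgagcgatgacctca
Dusp1 (chr17:26508592-26508631, minus strand): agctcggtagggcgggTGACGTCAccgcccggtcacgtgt
Errfi1 (chr4:150855003-150855042, plus strand): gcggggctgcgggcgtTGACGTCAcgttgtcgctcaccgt
Ppp1r15a (chr7:45526269-45526296, minus strand): gaccccgcctctccggTGACGTCAgcac
Rcan1 (chr16:92400230-92400269, minus strand): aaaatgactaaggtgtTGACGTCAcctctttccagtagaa
Lrrc8a (chr2:30237645-30237684, plus strand): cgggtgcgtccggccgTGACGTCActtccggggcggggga
In Dusp1, the canonical E-box CACGTG, the site of clock and MYC family factors, follows the element by a few bases and is seen in lower case at the end of the stretch. The E-box was present in 12.9% of the risen, 13.7% of the fallen and 8.58% of the genes tested, and the AP-1 element TGANTCA in 10.3%, 11.8% and 6.57%. A match is a description of the letters and not a measured binding site.

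Of 21 circadian clock and output genes 7 rose (33.3%, against 1.10% of all genes), with a list median of 0.47. Without nondiabetic array 3 the count was 3, and after quantile normalization it was 5. The clock is a loop in which Arntl and Clock drive the Per and Cry genes, which repress them. Besides Per1, Per3, Dbp and Bhlhe41, the risen members were Usp2, Wee1 and Bhlhe40. Usp2, a clock-controlled deubiquitinase, was 6.54, 6.77, 7.28 and 6.52 in the diabetic and 5.82, 5.37 and 5.03 in the nondiabetic glands (log2 change 1.37 ± 0.21 SE, limma adjusted p = 0.00757). Wee1, a clock-controlled kinase that holds cells before mitosis, was 4.79, 5.07, 6.05 and 4.33 in the diabetic and 3.8, 3.48 and 3.88 in the nondiabetic glands (log2 change 1.34 ± 0.3 SE, limma adjusted p = 0.0479), with diabetic and nondiabetic glands apart. Bhlhe40, a repressor of the loop, was 7.5, 7.4, 7.55 and 7.63 in the diabetic and 6.95, 7.03 and 6.54 in the nondiabetic glands (log2 change 0.68 ± 0.14 SE, limma adjusted p = 0.0322). In the other limb of the loop, Arntl was 4.4, 4.7, 3.93 and 5.11 in the diabetic and 4.98, 5.88 and 7.42 in the nondiabetic glands and 7.47, 7.42 and 7.53 in the 6-week glands. Nondiabetic array 3 thus lay with the 6-week glands for Arntl, and nondiabetic array 1 lay within the diabetic values (log2 change -1.56 ± 0.43 SE, limma adjusted p = 0.102). Npas2, a relative of Clock, was 3.92, 4.27, 3.4 and 4.35 in the diabetic and 4.38, 4.84 and 5.56 in the nondiabetic glands and 6.1, 6.07 and 6.27 in the 6-week glands, again with nondiabetic array 3 the highest of the older glands (limma adjusted p = 0.107). The hour of collection is not given in the sources used here, and its part in these changes was not tested. Usp2 passed in each of the 7 fits that left out 1 array. Wee1 missed the threshold in 5 of the 7 fits (limma adjusted p up to 0.126) and Bhlhe40 in 6 of the 7 fits (adjusted p up to 0.119). After quantile normalization Wee1 and Bhlhe40 did not pass (limma adjusted p up to 0.0806).

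Of the promoters of the risen clock genes, Per1 and Bhlhe41 hold the E-box and Per3 holds the D-box TTATGTAA, the site of DBP and its relatives. The D-box was in 1 of the 155 risen genes (0.645%) and in 0.730% of the genes tested. The stretches are printed to show these clock elements, in capitals, in GRCm38.p6.
Per1 (chr11:69098767-69098804, plus strand): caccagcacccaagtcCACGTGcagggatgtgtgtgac
Bhlhe41 (chr6:145865552-145865589, minus strand): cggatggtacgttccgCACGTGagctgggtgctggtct
Per3 (chr4:151044847-151044886, minus strand): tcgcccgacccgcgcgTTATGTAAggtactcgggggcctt

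Glucocorticoid targets overlapped with these lists. Of 25 such genes 9 rose (36%, against 1.10% of all genes), with a list median of 0.69. They were Pdk4, Per1, Zbtb16, Lcn2, Angptl4, Glul, Dusp1, Cebpd and Errfi1. The count was 6 without nondiabetic array 3 and 7 after quantile normalization. Zbtb16, a transcription factor strongly induced by glucocorticoids, was 5.07, 6.24, 6.7 and 6.68 in the diabetic and 5.04, 4.09 and 4.43 in the nondiabetic glands (log2 change 1.66 ± 0.37 SE, limma adjusted p = 0.0464), with diabetic array 1 only just above nondiabetic array 1. Cebpd was 5.39, 5.65, 5.64 and 5.67 in the diabetic and 4.77, 4.72 and 4.26 in the nondiabetic glands (log2 change 1.01 ± 0.18 SE, limma adjusted p = 0.0158). Other standard targets did not pass: Fkbp5 was 5.28, 5.29, 5.98 and 5.99 in the diabetic and 4.96, 5.25 and 4.83 in the nondiabetic glands (limma adjusted p = 0.182) and Tsc22d3 was 4.47, 4.49, 5.0 and 5.26 in the diabetic and 4.53, 4.55 and 4.23 in the nondiabetic glands (limma adjusted p = 0.366). Nr3c1, the glucocorticoid receptor, gave 0.47 ± 0.14 (SE, limma adjusted p = 0.143). Zbtb16 missed the threshold in 6 of the 7 fits (limma adjusted p up to 0.154) and Cebpd without diabetic array 3 or nondiabetic array 3 (adjusted p up to 0.0747). After quantile normalization Zbtb16 did not pass (limma adjusted p = 0.0711).

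Single chemokine and cytokine genes rose. Ccl9 was 6.86, 6.59, 7.34 and 6.14 in the diabetic and 5.29, 5.17 and 4.84 in the nondiabetic glands (log2 change 1.63 ± 0.23 SE, limma adjusted p = 0.00415). Ccl11, eotaxin, was 5.85, 6.17, 6.84 and 6.82 in the diabetic and 5.01, 5.17 and 4.06 in the nondiabetic glands (log2 change 1.67 ± 0.35 SE, limma adjusted p = 0.0334). Ccl6 was 5.18, 4.91, 5.5 and 4.72 in the diabetic and 3.93, 4.08 and 3.25 in the nondiabetic glands (log2 change 1.32 ± 0.29 SE, limma adjusted p = 0.042). Il33, an alarmin stored in the nuclei of barrier and stromal cells, was 5.14, 5.31, 6.0 and 5.28 in the diabetic and 4.52, 4.57 and 4.29 in the nondiabetic glands (log2 change 0.97 ± 0.2 SE, limma adjusted p = 0.0346). Il34, a ligand of the macrophage growth factor receptor, was 5.67, 6.03, 5.88 and 5.46 in the diabetic and 5.12, 4.76 and 4.26 in the nondiabetic glands (log2 change 1.05 ± 0.19 SE, limma adjusted p = 0.0206). In all 5 genes the lowest diabetic gland was above the highest nondiabetic gland, and 269 of the 271 called genes lacked overlap likewise. Sting1, the sensor of cyclic dinucleotides, was 5.87, 6.01, 5.61 and 5.88 in the diabetic and 4.97, 4.93 and 4.63 in the nondiabetic glands (log2 change 1.0 ± 0.15 SE, limma adjusted p = 0.00586). Together with Lbp, the lipopolysaccharide-binding protein, it made up the 2 called members of 44 pattern recognition genes (4.55%, against 1.10% of all genes). The chemokines, Il33 and Il34 were chosen after their values were seen, except that Ccl9 and Ccl11 fell under the rule on the largest rises. Ccl9 and Sting1 passed in each of the 7 fits that left out 1 array. Ccl6 missed the threshold in 6 of the 7 fits (limma adjusted p up to 0.176), Ccl11 in 5 of the 7 fits (adjusted p up to 0.146) and Il33 in 5 of the 7 fits (adjusted p up to 0.144). Il34 missed the threshold without diabetic arrays 2 or 3 or nondiabetic array 3 (limma adjusted p up to 0.0753) and Lbp without diabetic array 3 or nondiabetic array 3 (adjusted p up to 0.064). After quantile normalization Ccl6, Ccl11 and Il33 did not pass (limma adjusted p up to 0.0588).

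Among lymphocyte genes 0 of 27 passed limma's test, with 3 at an unadjusted p under 0.05 and 20 of 27 positive changes. The list mean was 4.36, 4.26, 4.29 and 5.38 on the diabetic and 4.6, 4.35 and 3.88 on the nondiabetic arrays, so diabetic array 4 stood alone at the top and the other diabetic glands lay within the nondiabetic range. Cd3e, part of the T cell receptor complex, followed at 5.32, 5.52, 5.84 and 7.45 in the diabetic and 5.71, 5.23 and 4.27 in the nondiabetic glands (log2 change 0.96 ± 0.44 SE, limma adjusted p = 0.312). The macrophage and dendritic cell list had 4 risen members of 44 (9.09%, against 1.10% of all genes), Cd68, Mrc1, Lyz1 and Lilrb4a. The count was 0 without nondiabetic array 3 and 2 after quantile normalization. Its mean was 4.42, 4.4, 4.68 and 4.4 against 4.24, 4.24 and 4.01. Of 43 lysosomal genes, Cd68, Lgmn, Npc1 and Ctsl rose (9.3%). Of the 43 changes 38 were positive, with a median of 0.21 that became 0.11 without nondiabetic array 3. Of the lysosomal genes 0 passed without it, and 1 passed after quantile normalization. Lgmn, a protease that cuts after asparagine, was 6.29, 6.09, 6.46 and 6.18 in the diabetic and 5.68, 5.65 and 5.22 in the nondiabetic glands (log2 change 0.74 ± 0.17 SE, limma adjusted p = 0.0476). Npc1, which exports cholesterol from lysosomes, was 5.52, 5.58, 5.52 and 5.32 in the diabetic and 4.82, 5.0 and 4.69 in the nondiabetic glands (log2 change 0.64 ± 0.13 SE, limma adjusted p = 0.0334). Cln6, a membrane protein whose loss causes a lysosomal storage disease, lies outside the list, was chosen after its values were seen, and was 5.1, 5.06, 5.33 and 5.33 in the diabetic and 4.54, 4.48 and 4.4 in the nondiabetic glands (log2 change 0.73 ± 0.12 SE, limma adjusted p = 0.0104). Cln6 passed in each of the 7 fits that left out 1 array. Lgmn missed the threshold in 7 of the 7 fits (limma adjusted p up to 0.179) and Npc1 in 5 of the 7 fits (adjusted p up to 0.134). After quantile normalization Lgmn and Npc1 did not pass (limma adjusted p up to 0.0952).

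Stromal and matrix genes rose as single members too, and among them Vim, Mmp2, Lama4, Lama5 and Clu were chosen after their values were seen. Vim, the intermediate filament of mesenchymal cells, was 7.05, 7.21, 7.93 and 8.2 in the diabetic and 6.71, 6.39 and 6.0 in the nondiabetic glands (log2 change 1.23 ± 0.27 SE, limma adjusted p = 0.0424). Mmp2, a gelatinase made by fibroblasts, was 5.94, 5.93, 6.56 and 6.23 in the diabetic and 5.13, 5.0 and 3.96 in the nondiabetic glands (log2 change 1.47 ± 0.31 SE, limma adjusted p = 0.039). Apod, a lipid-binding apolipoprotein, was 6.73, 7.02, 7.84 and 7.62 in the diabetic and 5.94, 5.48 and 4.84 in the nondiabetic glands, a 3.68-fold rise (log2 change 1.88 ± 0.4 SE, limma adjusted p = 0.0366). In each of these, nondiabetic array 3 gave the lowest value of all 7 arrays. Lama4 and Lama5, laminin chains of basement membranes, rose by 0.86 and 0.72 on the log2 scale. Scn7a, a sodium channel of glia and fibroblasts, was 5.27, 5.56, 5.61 and 5.81 in the diabetic and 4.36, 4.04 and 3.84 in the nondiabetic glands (log2 change 1.48 ± 0.23 SE, limma adjusted p = 0.00871). Clu, a secreted chaperone, was 7.28, 7.38, 7.03 and 6.8 in the diabetic and 6.14, 6.0 and 6.14 in the nondiabetic glands (log2 change 1.03 ± 0.16 SE, limma adjusted p = 0.00773). Endothelial and pericyte genes had 1 risen member of 36, Abcc9 (2.78%, against 1.10% of all genes), which says little about the list. Their mean was 4.62, 4.49, 4.69 and 4.59 on diabetic and 4.56, 4.47 and 4.2 on nondiabetic arrays, so nondiabetic array 3 was the lowest there as well. Schwann cell, mast cell and skeletal muscle lists had no called member in limma's test, with 4, 2 and 2 genes at an unadjusted p under 0.05. Clu passed in each of the 7 fits that left out 1 array. Vim missed the threshold in 6 of the 7 fits (limma adjusted p up to 0.177), Mmp2 in 6 of the 7 fits (adjusted p up to 0.147) and Apod in 5 of the 7 fits (adjusted p up to 0.156). Lama4 missed the threshold in 5 of the 7 fits (limma adjusted p up to 0.104), Lama5 in 6 of the 7 fits (adjusted p up to 0.161) and Scn7a without nondiabetic array 3 (adjusted p = 0.051). Abcc9 missed the threshold in 7 of the 7 fits (limma adjusted p up to 0.174). After quantile normalization Vim, Mmp2, Apod, Lama4, Lama5 and Abcc9 did not pass (limma adjusted p up to 0.0861).

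Growth and lineage regulators were taken by list, beside 1.10% of all genes called as risen and 0.340% as fallen. Of 49 genes of TGF-beta and BMP signalling, Tgfb2 fell (2.04%) and Tgfbr3 rose (2.04%). Tgfb2, a ligand, was 4.6, 4.78, 4.89 and 4.88 in the diabetic and 5.59, 5.59 and 6.24 in the nondiabetic glands (log2 change -1.02 ± 0.16 SE, limma adjusted p = 0.0102). Tgfbr3, the co-receptor that presents it, was 4.81, 5.12, 5.52 and 5.55 in the diabetic and 4.67, 4.37 and 3.98 in the nondiabetic glands (log2 change 0.91 ± 0.2 SE, limma adjusted p = 0.0454). Of 41 gland progenitor and lineage regulators, Sox2 and Runx1 rose (4.88%) and Ascl3 fell (2.44%). Sox2, a transcription factor of salivary progenitors, was 5.54, 5.33, 5.64 and 4.97 in the diabetic and 3.86, 4.84 and 3.86 in the nondiabetic glands (log2 change 1.18 ± 0.23 SE, limma adjusted p = 0.0277). Diabetic array 4 was the lowest and nondiabetic array 2 the highest of their groups, as for the sublingual Muc19 and Galnt12 and for Rcan1. A part of the sublingual share of the sample in these changes was not tested, and other genes with this order were not counted. Runx1 was 5.06, 5.56, 5.42 and 5.86 in the diabetic and 4.88, 4.65 and 4.4 in the nondiabetic glands (log2 change 0.83 ± 0.18 SE, limma adjusted p = 0.0429). Among 47 neurotrophic and axon guidance genes only Nrp2 rose (2.13%), and among 28 YAP/TAZ and SRF targets Ccn1 and Acta2 rose (7.14%). No gene passed limma's test among 50 Wnt, 28 Notch, 31 FGF and 51 cell cycle genes, of which 1, 7, 6 and 10 were at an unadjusted p under 0.05. The same held for 24 retinoid, 23 steroid hormone and 16 thyroid hormone and vitamin D genes, with 2, 5 and 3 at an unadjusted p under 0.05. With 1.44% of all genes called, the lack of a called gene in lists of this size says little about them. Tgfb2 passed in each of the 7 fits that left out 1 array. Tgfbr3 missed the threshold in 5 of the 7 fits (limma adjusted p up to 0.179), Sox2 in 5 of the 7 fits (adjusted p up to 0.125) and Runx1 in 6 of the 7 fits (adjusted p up to 0.17). Nrp2 missed the threshold in 5 of the 7 fits (limma adjusted p up to 0.12). After quantile normalization Tgfbr3 and Runx1 did not pass (limma adjusted p up to 0.069).

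Some of the genes that rose encode enzymes that build or trim glycans. No list of them had been drawn up, so they are given as single genes, and all but B4galnt2 were chosen after their values were seen. B4galnt2, which adds N-acetylgalactosamine to make the Sda antigen, was 4.87, 4.62, 5.17 and 4.45 in the diabetic and 3.15, 3.73 and 2.45 in the nondiabetic glands, a 3.18-fold rise (log2 change 1.67 ± 0.31 SE, limma adjusted p = 0.0229). St8sia6, a sialyltransferase, was 6.15, 5.66, 6.06 and 5.48 in the diabetic and 4.27, 5.13 and 4.32 in the nondiabetic glands (log2 change 1.27 ± 0.22 SE, limma adjusted p = 0.015). Man2a1, the Golgi mannosidase that trims N-glycans, was 5.5, 5.45, 5.8 and 6.38 in the diabetic and 4.58, 4.61 and 4.31 in the nondiabetic glands (log2 change 1.28 ± 0.22 SE, limma adjusted p = 0.0133). In St8sia6 diabetic array 4 was the lowest and nondiabetic array 2 the highest of their groups, as for the sublingual Muc19. In Man2a1 the highest diabetic value was that of array 4. Mgat3, which adds the bisecting N-acetylglucosamine, was 4.94, 5.43, 4.79 and 4.74 in the diabetic and 4.14, 4.01 and 4.1 in the nondiabetic glands (log2 change 0.89 ± 0.19 SE, limma adjusted p = 0.0402). All 4 genes were higher in every diabetic gland than in any nondiabetic gland, and 269 of the 271 called genes lacked overlap likewise. B4galnt2 missed the threshold in 4 of the 7 fits (limma adjusted p up to 0.102), St8sia6 without diabetic array 3 or nondiabetic arrays 1 or 3 (adjusted p up to 0.076) and Man2a1 without nondiabetic array 3 (adjusted p = 0.0707). Mgat3 missed the threshold in 6 of the 7 fits (limma adjusted p up to 0.128). After quantile normalization Mgat3 did not pass (limma adjusted p = 0.0745).

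Of 36 antimicrobial and airway-type secretory genes, 8 rose (22.2%, against 1.10% of all genes) and none fell, and 6 rose without nondiabetic array 3. Of the 8, 4 are also in the parotid-type list. Wfdc18, a small whey acidic protein, was 7.82, 7.74, 7.72 and 7.37 in the diabetic and 5.48, 6.77 and 6.03 in the nondiabetic glands (log2 change 1.57 ± 0.25 SE, limma adjusted p = 0.00893). Lyz1 was 4.59, 4.32, 5.42 and 5.18 in the diabetic and 3.61, 3.9 and 3.24 in the nondiabetic glands (log2 change 1.29 ± 0.24 SE, limma adjusted p = 0.023). Cp, the ferroxidase ceruloplasmin, was 5.16, 5.38, 5.89 and 5.95 in the diabetic and 4.61, 3.94 and 4.22 in the nondiabetic glands (log2 change 1.34 ± 0.3 SE, limma adjusted p = 0.0479), and with Lcn2 and Ltf it formed the 3 called of 31 genes for iron and haem handling (1 without nondiabetic array 3). In the coagulation and kinin list of 30, Serpina3n, F13a1 and Serping1 rose (10%), and none of the 30 passed after quantile normalization. The change of Serping1 was 2.11 with all arrays and 1.51 without nondiabetic array 3, where it did not pass (limma adjusted p = 0.154). Serpina3n, a protease inhibitor of the acute phase, was 5.23, 5.17, 5.37 and 5.42 in the diabetic and 4.22, 3.85 and 4.69 in the nondiabetic glands (log2 change 1.04 ± 0.18 SE, limma adjusted p = 0.015). F13a1, the clot-stabilising transglutaminase, was 5.3, 5.42, 6.73 and 5.68 in the diabetic and 4.38, 4.39 and 4.26 in the nondiabetic glands (log2 change 1.44 ± 0.29 SE, limma adjusted p = 0.0309). Mup5, a major urinary protein, was the 1 called of 5 lacrimal gland products at 6.7, 7.87, 8.11 and 8.84 in the diabetic and 6.67, 5.76 and 5.24 in the nondiabetic glands (log2 change 1.99 ± 0.41 SE, limma adjusted p = 0.0341). Diabetic array 1 was only just above nondiabetic array 1 there. Wfdc18 passed in each of the 7 fits that left out 1 array. Lyz1 missed the threshold without diabetic array 3 or nondiabetic arrays 1 or 3 (limma adjusted p up to 0.114), Cp in 6 of the 7 fits (adjusted p up to 0.151) and Serpina3n without diabetic array 3 or nondiabetic array 1 (adjusted p up to 0.0549). F13a1 missed the threshold in 4 of the 7 fits (limma adjusted p up to 0.12) and Mup5 in 5 of the 7 fits (adjusted p up to 0.15). After quantile normalization Cp, Serpina3n, F13a1 and Mup5 did not pass (limma adjusted p up to 0.0832).

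A few called probe sets belong to genes of olfactory receptors or to genes that encode no protein. Of 357 olfactory receptor genes 5 fell and 0 rose, and all 5 also fell after quantile normalization (limma adjusted p up to 0.0468). Without nondiabetic array 3 only Olfr1010 of the 5 passed (limma adjusted p of the others up to 0.128). The largest of these falls was Olfr1010, at 3.7, 2.84, 3.13 and 3.2 in the diabetic and 4.87, 5.11 and 5.26 in the nondiabetic glands (log2 change -1.87 ± 0.19 SE, limma adjusted p = 0.000462). Of 265 microRNA genes 1 rose and 1 fell. Mir5123 was 6.46, 6.66, 6.22 and 6.84 in the diabetic and 5.5, 5.54 and 5.8 in the nondiabetic glands (log2 change 0.93 ± 0.17 SE, limma adjusted p = 0.0169) and was chosen after its values were seen. The array measured RNA from the locus, not the mature microRNA, whose sequence in RefSeq (chr4:40850057-40850080, minus strand, GRCm38.p6) is printed with its seed, bases 2 to 8, in capitals because the seed decides which messenger RNAs it pairs with.
mmu-miR-5123: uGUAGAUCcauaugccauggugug
2310057J18Rik, known only by its clone name and chosen after its values were seen, rose, at 12.03, 12.27, 12.25 and 12.25 in the diabetic and 10.5, 9.95 and 10.26 in the nondiabetic glands and 11.95, 11.49 and 11.68 in the 6-week glands (log2 change 1.96 ± 0.16 SE, limma adjusted p = 0.00015). Olfr1010 and 2310057J18Rik passed in each of the 7 fits that left out 1 array. Mir5123 missed the threshold without diabetic array 2 or nondiabetic arrays 1 or 2 (limma adjusted p up to 0.0595). After quantile normalization Mir5123 did not pass (limma adjusted p = 0.0507).

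The 6-week glands, which had no diabetes, lay nearer to the older nondiabetic glands for most called genes. Their mean fell between the 2 older groups for 169 of the 207 risen and 54 of the 64 fallen genes. It was nearer the nondiabetic than the diabetic mean for 169 of the risen and 53 of the fallen genes. Since the 6-week arrays share no mouse with either group but do share the estimate of the spread, these counts are given as a description with no test. The genes were selected for a gap between the older groups, which by itself tends to place another group's mean between them. The same counts were not made over all genes, so they do not show that young and older nondiabetic glands are alike.

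**Figure D5:**
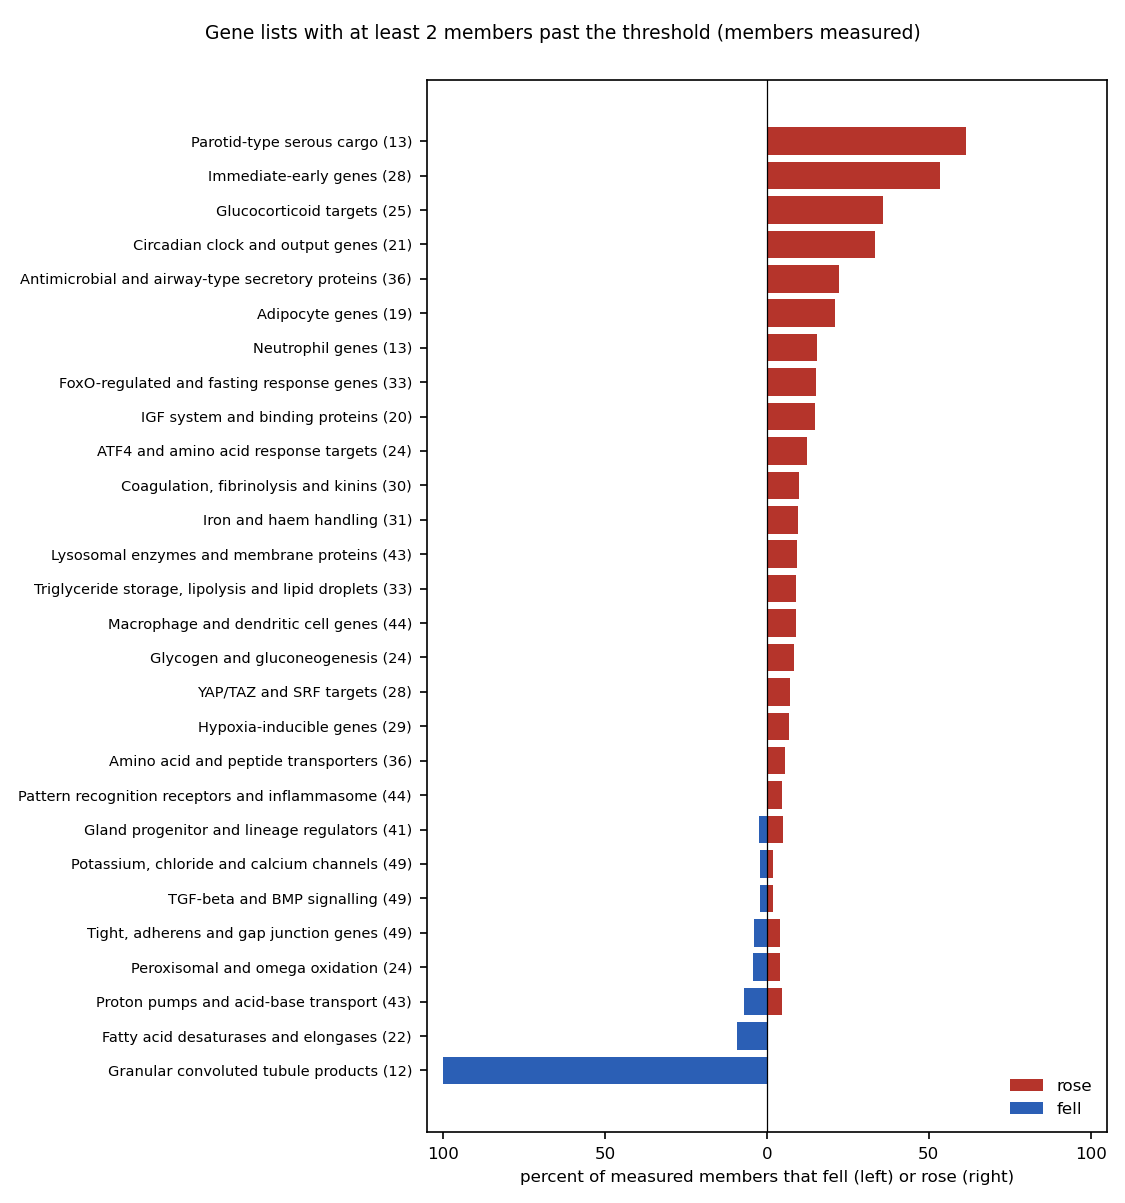
Bars give the share of each gene list that rose (right, red) or fell (left, blue) in diabetic against nondiabetic glands, as percent of the measured members shown in brackets, for the 28 lists with at least 2 called members. Tubule products reach 100% fallen and parotid-type cargo 61.5% risen, and the immediate-early, glucocorticoid and clock lists reach 53.6%, 36% and 33.3% risen. Of all genes 1.10% were called as risen and 0.340% as fallen, and the lists were chosen with earlier results of these data known.

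The remaining lists give the extent of what did not pass. No member was called by limma among 30 proteasome subunits, 20 aminoacyl-tRNA synthetases, 23 zinc and copper genes and 12 widely expressed reference genes, with 3, 2, 5 and 1 at an unadjusted p under 0.05. The changes of the reference genes ran from -0.31 to 0.27. Single members rose among 35 ribosome biogenesis genes (Gnl3), 37 splicing genes (Clk4), 36 autophagy genes (Depp1), 40 cyclic nucleotide signalling genes (Pde2a) and 33 prostaglandin and leukotriene genes (Pla2g7). A single risen member in lists of this size says little about them, since 1.10% of all genes were called as risen. Splicing genes had 36 of 37 positive changes with a median of 0.25. Gnl3 missed the threshold in 5 of the 7 fits (limma adjusted p up to 0.0903), Clk4 without diabetic array 3 or nondiabetic arrays 2 or 3 (adjusted p up to 0.0729) and Depp1 in 6 of the 7 fits (adjusted p up to 0.154). Pde2a missed the threshold in 4 of the 7 fits (limma adjusted p up to 0.12) and Pla2g7 without diabetic arrays 2 or 3 or nondiabetic array 3 (adjusted p up to 0.0809). After quantile normalization Gnl3 and Depp1 did not pass (limma adjusted p up to 0.0844). A gene that did not pass is not thereby shown to be unchanged.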

How the data were processed

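The authors deposited log2 intensities per probe set, for which the submitters' processing notes name RMA and Affymetrix Power Tools without versions. The table holds 41345 probe sets. GEO's platform annotation gives 1 symbol to 23521 of them, several to 1814 and none to 16010. From the 1-symbol probe sets, those above their array's 25th percentile in at least 3 of the 10 arrays were kept, with the brightest per gene, leaving 18826 genes. limma 3.58.1 in R 4.3.3 fitted a mean for each of the 3 groups (7 residual and 5.61 prior degrees of freedom), and the contrast was diabetic minus nondiabetic at 21 weeks, two-sided, with Benjamini-Hochberg adjustment over all genes and a threshold of 0.05. The script was tested on simulated data. Precision is limited by how few arrays there are. The labels number separate mice, with nothing said of litters or batches. Replicate numbers were not taken to pair the mice, since the labels do not say that they do.

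The comparison and the gene lists were chosen with earlier results of these data known. Named by rule were the 40 largest rises and falls without overlap, called list members, the 3 members of smallest p per list and 12 fixed genes. Chosen outside the rule, after their values were seen or as reference points, were 2310057J18Rik, Acadsb, Acat1, Arntl, Asns, Atf4, Atp1b3, Ccl6, Cftr, Cgref1, Cln6, Clock, Clu, Cnot6, Dusp5, Echs1, Fkbp5, Ggh, Golm2, Il33, Il34, Lama4, Lama5, Lrrc8a, Man2a1, Mgat3, Mir5123, Mmp2, Npas2, Pan3, Prol1, Rap1b, Slc9a9, St8sia6, Tsc22d3, Vim and Zfp36l1. Promoter and microRNA sequences came from RefSeq tables (GRCm38.p6), matched by symbol. Alternatives were other filters, probe set rules, variance models, scalings, thresholds, a replicate block and left-out arrays.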

Additional observations from a re-analysis of the deposited data

Results flagged for a closer look

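In 9 of the 139 genes named in the text (6.5%) 1 diabetic array lay far from the other 3, by a gap above Dixon's critical value for 4 samples. Chance gives about 1 in 20 such cases. Diabetic array 4 was the far one in 4 of them and was low each time, at 4.71 for Cgref1, 6.73 for Egf, 4.58 for Galnt12 and 5.40 for Golm2 (log2 intensity). For Cgref1, Galnt12 and Golm2 nondiabetic array 2 was the highest of its group, the same order as in the sublingual Muc19. Diabetic array 1 was low at 12.03 for 2310057J18Rik, 5.39 for Cebpd and 4.33 for Pla2g7. Diabetic array 2 was high at 7.29 for Ctsl, and diabetic array 3 was high at 7.18 for Errfi1. Over whole marker lists, diabetic array 4 was far above the others in the mean of the lymphocyte genes (5.38), and diabetic array 3 in that of the macrophage and dendritic cell genes (4.68).

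Probe sets that are unnamed here or carry several symbols were outside the comparison. Of 13053 such probe sets tested in the same way, 25 passed, 17 higher and 8 lower in diabetic glands, and 1453 were at an unadjusted p under 0.05. This alternative was chosen after seeing the data.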

How the results depend on the processing

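The count of 271 called genes, 207 risen and 64 fallen, was within 1.5 times with dim genes left in, with the filter moved up to the array median, with probe sets averaged per gene or kept apart, with trended or robust variance and with median centring (counts between 232 and 378). The 2 groups fitted alone gave 161 (120 risen, 41 fallen). Array weights raised the fallen genes to 99, and quantile normalization gave 130 risen and 100 fallen. A threshold of 0.01 left 69 (50 and 19), and at least 2-fold 148 (113 and 35). All probe sets of the table tested together gave 126 (93 and 33). Leaving out 1 array gave 84 to 268 genes, with 59 to 222 risen and 23 to 55 fallen, with the fewest genes in all without nondiabetic array 3, followed by diabetic array 3. Without nondiabetic array 3 and diabetic array 4 together, 175 passed (130 risen). The cause of these shifts was not tested.

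With the replicate number as a block 204 genes passed, 163 risen and 41 fallen. Deviations of same-numbered arrays correlated at -0.118, -0.0245 and -0.0229, so no shared deviation was seen. With so few arrays this cannot exclude a shared litter or batch, on which the labels are silent.

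Of the 139 genes named, quantile normalization ended the call of 38 and the block that of 51. The sign turned only for genes that had not passed: Aqp5 (-0.01), Asns (-0.01) and Chrm3 (-0.11) after quantile normalization, and Chrm3 in the fits without 1 array, where it ran from -0.04 (without diabetic array 2) to 0.13 and was 0.00 without nondiabetic array 3. Dim genes limit the comparison: in the lowest of 4 bins of level of about equal size 0.255% passed.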
